A study of Mus musculus with 12 samples.

Results

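Genes that make, phosphorylate or consume NAD were followed across the 6 groups of a study of Cd38 in mouse haematopoietic stem cells. The 10 genes were taken by symbol: Cd38, Bst1, Nampt, Nmnat1, Nmnat3, Nadsyn1, Naprt, Nmrk1, Nadk and Nadk2. All 10 were among the 35976 gene rows counted in each library. The cells were sorted from mice as lineage-negative cells positive for c-Kit and Sca-1, and the libraries were 3′ tag libraries, in which a read marks the 3′ end of a transcript and counts do not scale with transcript length. The groups held 2 libraries each. Stimulated KO and stimulated WT cells came from young mice and spent 24 hours with cytokines ex vivo. Old fresh KO and old fresh WT cells came from mice of 24 months, and young fresh KO and young fresh WT cells from mice of 2 months, both without culture. KO means a mouse labelled as lacking CD38. The labels give neither the deleted part of the gene nor the strain, the cytokines, or whether 2 libraries of a group came from separate animals, so p-values measure only the spread between these libraries.

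NAD is an electron carrier that is also broken down as a substrate, so cells remake it all the time. Most is remade from nicotinamide: NAMPT turns nicotinamide into nicotinamide mononucleotide, and an NMNAT enzyme joins that to an adenylyl group to give NAD. Side routes start from nicotinate, through NAPRT and NAD synthetase (NADSYN1), or from nicotinamide riboside, through the kinase NMRK1. NAD kinases add a phosphate to give NADP, which feeds the NADPH pool used in biosynthesis and antioxidant defence. CD38 and its relative BST1 are surface enzymes that split NAD into nicotinamide and ADP-ribose or cyclic ADP-ribose, a calcium-mobilising messenger. CD38 is also a marker used to divide mouse stem cell populations.

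Libraries held 1600155 to 5164720 counts. A single count was worth 0.207 to 0.627 CPM (counts scaled to the library's size with TMM factors), and each old library held more counts than any young one. The spread between replicates was far wider in fresh cells, with a common dispersion of 1.02 to 1.45 in the 4 fresh groups against 0.0402 in stimulated KO and 0.0336 in stimulated WT cells. Young fresh WT replicate 1 stood apart in sex, with Xist at 0 and Ddx3y at 88.4 CPM, where the other 11 libraries had Xist at 198 CPM or more. Both genes of the sort, Kit and Ly6a, were present in every library, at a sum of 249 to 570 CPM. Of 10 genes of lineage-positive cells, Cd3e, Cd4 and Cd8a were at 0 in all 12 libraries. The neutrophil gene S100a8 was the exception, at 524 to 990 CPM in stimulated, 291 to 1918 CPM in old fresh and 2534 to 5682 CPM in young fresh cells. In bulk libraries like these, fewer cells of a type and less RNA per cell cannot be told apart.

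The 10 genes fell into a well-counted set and a sparse set. Mean levels over the 12 libraries were 97.9 CPM for Nampt, 68.4 for Nadk, 55.7 for Nadk2, 25.1 for Cd38 and 16.2 for Nmnat3. The other members averaged 4.52 CPM (Nmrk1), 3.44 CPM (Nadsyn1), 2.41 CPM (Nmnat1), 2.30 CPM (Naprt) and 0.717 CPM (Bst1). Since a 3′ tag is counted about once per transcript, these levels were set beside each other without dividing by length. How fully each gene's 3′ end is captured was not tested. Last exons run from 105 bases for Naprt to 2927 for Nampt in GENCODE M21, and the annotation used for counting is not given. The 3 members with the highest means overlap in their ranges over libraries: Nampt spanned 30.4 to 146 CPM, Nadk 51.3 to 102 CPM and Nadk2 28.3 to 112 CPM. Nampt, Nadk, Nadk2 and Cd38 were counted in every library. Nmnat3 was at 0 in 1 library, Nadsyn1 in 2, Nmrk1 and Naprt in 4 each, Nmnat1 in 5 and Bst1 in 10, and apart from 2 libraries for Bst1 every one of these zeros lay in fresh cells. After the filter on low counts, 7 members were tested between genotypes in stimulated cells, 6 in fresh cells and 8 between stimulated and fresh cells. No tested member passed edgeR's quasi-likelihood test at a Benjamini-Hochberg adjusted p under 0.05 over all genes, in any of 7 comparisons. Only Cd38, between stimulated and fresh cells, had an unadjusted p under 0.05 among them. That is 1 of 8 tested members, in a comparison where 17.7% of all genes did. The median log2 difference of the tested members was 0.16 between stimulated and fresh cells and 0.14 between old and young, against 0.27 and 0.05 over all genes. Between KO and WT it was -0.04 in stimulated, -0.46 in old fresh and 0.08 in young fresh cells, against 0.00, 0 and -0.03 over all genes, and these medians were the same with Nmrk1 at its bound where a group had 0 counts.

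**Figure D1:**
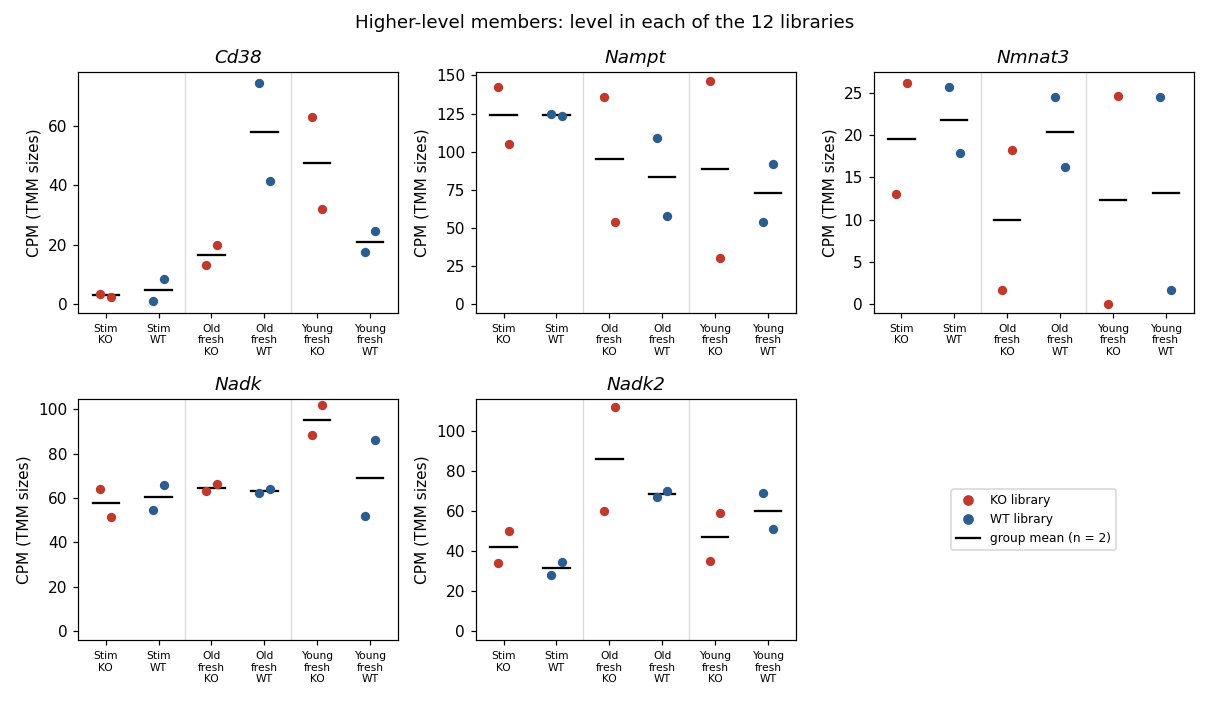
Level in CPM (linear axis, TMM sizes) of the 5 members with the highest levels, for each of the 12 libraries in 6 groups; dots are libraries and black bars the mean of 2. Cd38 sits at 0.998 to 8.58 CPM in stimulated libraries, under all 8 fresh ones, while Nampt, Nadk and Nadk2 overlap between the states.

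Cd38 itself (GRCm38, chromosome 5, 43868809 to 43912374) was counted in all 12 libraries, those labelled KO included. Its levels were 3.59 and 2.32 CPM in stimulated KO cells and 0.998 and 8.58 CPM in stimulated WT cells. Old fresh cells had 13.2 and 19.9 CPM in KO and 74.4 and 41.4 CPM in WT, and young fresh cells 62.8 and 31.9 CPM in KO and 17.6 and 24.6 CPM in WT. Ordered by their means, the 6 groups formed 3 overlapping pairs with gaps between the pairs: old WT with young fresh KO at the top, young fresh WT with old KO in the middle, and stimulated WT with stimulated KO at the bottom. Cd38 has 8 exons in GENCODE M21, and its last exon (43910280 to 43912375) overlaps no other annotated gene. A deletion elsewhere in the gene need not remove that exon, so reads in KO libraries check the genotype in neither direction.

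The question of what 24 hours of cytokines do to these genes was addressed by stimulated against young fresh cells, with the genotypes averaged. Cd38 was the member with the largest difference among those with counts in every group. All 4 stimulated libraries lay below all 4 young fresh libraries, by a log2 fold change of -3.05 ± 0.87 (SE; 95% interval -4.91 to -1.20). That missed the threshold in edgeR (adjusted p = 0.0833) and passed in DESeq2 (log2 -3.13, adjusted p = 0.000963) and in limma voom weighted by group (log2 -3.31, adjusted p = 0.0114). An exact two-sided permutation test of 4 against 4 libraries gave p = 0.0286, the smallest it can give, on a mean difference of -2.94 in log2(CPM + 1). Of all 11548 genes tested, 5.16% likewise had all 4 stimulated libraries below all 4 fresh ones, 19.8% were separated in either direction, and 2.81% passed edgeR's test. DESeq2 called more of these genes, 774, and limma voom 712. Within KO cells the log2 difference was -3.98 ± 1.28 (adjusted p = 0.233 by edgeR and 0.00648 by DESeq2), and within WT cells -2.13 ± 1.19 (adjusted p = 0.579 by edgeR). Cd38 was not called within WT cells by DESeq2, nor within either genotype by limma voom. Without young fresh WT replicate 1, the library that differed in sex, the averaged difference was -3.16 (adjusted p = 0.105 by edgeR). Leaving out each of the 8 libraries in turn kept it between -4.15 and -2.62, with adjusted p from 0.0609 to 0.452 by edgeR. The summed level of the 10 lineage genes also differed between these states, at 560 to 1051 CPM in stimulated and 2543 to 5725 CPM in young fresh libraries, nearly all of it S100a8. Without S100a8 the sums were 35.8 to 60.4 CPM and 8.68 to 46.6 CPM in the same order, and the part of these genes in the Cd38 result was not tested. The 6 stem cell genes also summed to less, at 476 to 834 CPM in stimulated and 1163 to 1518 CPM in young fresh libraries. Most of that sum was Hlf, at group means of 499 CPM in stimulated KO, 391 CPM in stimulated WT, 886 CPM in young fresh KO and 932 CPM in young fresh WT. Mecom in KO cells went the other way, at means of 102 CPM in stimulated and 73.0 CPM in young fresh cells. Of these 6, Hlf passed (log2 -1.04 ± 0.17, adjusted p = 0.00321 by edgeR), and their part was not tested either.

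Nampt, the rate-limiting enzyme of nicotinamide salvage (chromosome 12, 32820335 to 32853369), gave 143 and 105 CPM in stimulated KO and 124 and 123 CPM in stimulated WT cells. Young fresh cells gave 146 and 30.4 CPM in KO and 53.9 and 92.0 CPM in WT. The stimulated values were close together and fell inside the range of the fresh ones, whose KO replicates differed 4.82-fold. The log2 difference was 0.62 ± 0.46 (95% interval -0.35 to 1.6), against a median of 0.27 over all genes tested, and it did not pass (adjusted p = 0.519 by edgeR).

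Both NAD kinases had lower means after stimulation, without passing. NADK is the cytosolic enzyme and NADK2 the mitochondrial one. Nadk (chromosome 4, 155562381 to 155591001) had 64.3 and 51.3 CPM in stimulated KO and 54.6 and 66.0 CPM in stimulated WT cells. Its young fresh levels were 88.3 and 102 CPM in KO and 52.1 and 86.3 CPM in WT, so the ranges of the 2 states overlapped. The log2 difference was -0.46 ± 0.36 (95% interval -1.22 to 0.30). Nadk2 (chromosome 15, 9071260 to 9110496) had 34.2 and 50.01 CPM in stimulated KO and 28.3 and 34.3 CPM in stimulated WT cells. In young fresh cells it had 35.2 and 59.2 CPM in KO and 50.8 and 69.0 CPM in WT, again with overlapping ranges of the 2 states. Its log2 difference was -0.55 ± 0.43 (95% interval -1.48 to 0.38), and the exact permutation test of 4 against 4 libraries gave p = 0.0571 for Nadk2 and 0.114 for Nadk.

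The adenylyltransferase genes differed in level. Nmnat3 (chromosome 9, 98287433 to 98420533), which encodes the mitochondrial enzyme, had 13.0 and 26.2 CPM in stimulated KO and 25.6 and 17.8 CPM in stimulated WT cells. Fresh replicates of this gene disagreed, with 0 and 24.6 CPM in young fresh KO and 24.5 and 1.71 CPM in young fresh WT cells. Its log2 difference on stimulation, 0.70 ± 1.31, came with a 95% interval of -2.09 to 3.49, too wide to place the change in either direction. Nmnat1 (chromosome 4, 149467569 to 149485210), which encodes the nuclear enzyme, had too few counts for the test. It was counted in all 4 stimulated libraries, at 0.662 to 2.21 CPM, and in 2 of 4 young fresh ones, at 19.4 CPM in KO replicate 3 and 2.51 CPM in WT replicate 1. The exact permutation test gave p = 0.829 for that difference.

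The genes of the side routes were sparse. Naprt (chromosome 15, 75890963 to 75894481), for the first step from nicotinate, had 1.66 to 5.66 CPM in the 4 stimulated libraries and 0 to 8.68 CPM in the 4 young fresh ones. Nadsyn1 (chromosome 7, 143795589 to 143822862), for the last step of that route, had 0.993 to 6.62 CPM in stimulated and 0.510 to 15.7 CPM in young fresh libraries. Nmrk1 (chromosome 19, 18632016 to 18652428) had 2.31 to 4.14 CPM in all 4 stimulated libraries, whereas 3 of the 4 young fresh libraries had none and WT replicate 2 had 8.57 CPM. For these 3 genes the stimulated and fresh ranges overlapped, and adjusted p was 0.959, 0.844 and 0.502 for Naprt, Nadsyn1 and Nmrk1 by edgeR.

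**Figure D2:**
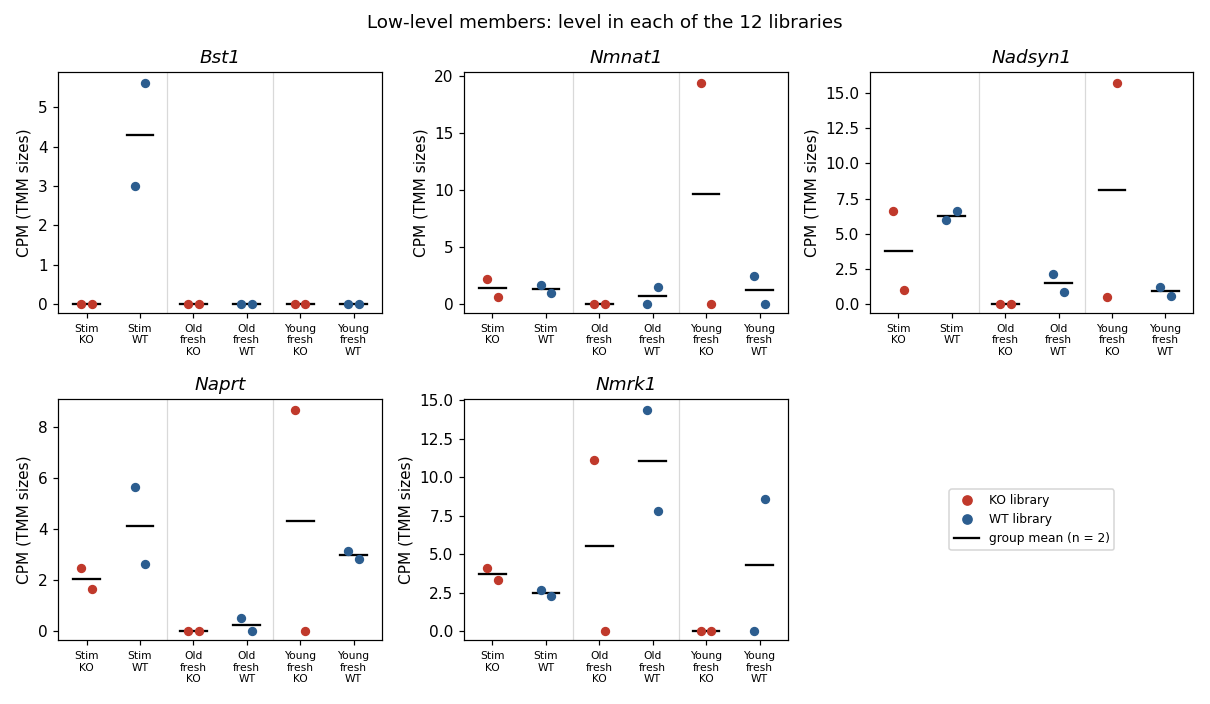
Level in CPM (linear axis, TMM sizes) of the 5 sparsely counted members for each of the 12 libraries in 6 groups; dots are libraries and black bars the mean of 2. Bst1 is above 0 in the 2 stimulated WT libraries and in no other, and Nmnat1, Nadsyn1 and Naprt are at 0 in both old fresh KO libraries.

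Bst1 (chromosome 5, 43818880 to 43843468) lies 25.3 kb upstream of Cd38 on the same strand. It encodes a GPI-anchored relative of CD38, known in mice from bone marrow stromal cells, myeloid cells and early lymphocytes. The 2 stimulated WT libraries had 9 and 17 counts, or 2.99 and 5.61 CPM, and the other 10 libraries had 0. With 3 counts over the stimulated KO libraries as the floor (0.452 CPM), Bst1 was at least 9.54-fold lower in stimulated KO than in stimulated WT cells. Against the young fresh WT libraries as the floor it was at least 4.80-fold higher in stimulated WT cells. Such floors cover counting error only. The gene was under the filter. In edgeR without a filter its genotype difference in stimulated cells passed (adjusted p = 0.0308), as 1 of 340 calls among 15455 genes. With a library left out, 1 arm is a single sample that is assumed to vary like the other group. Bst1 then passed in none of the 4 fits, at adjusted p = 0.614 and 0.88 when KO replicate 3 or 4 was dropped and 0.103 and 0.598 when WT replicate 1 or 2 was. Beside it, 6 stem cell genes summed to 707 to 834 CPM in stimulated KO and 476 to 565 CPM in stimulated WT cells. The summed lineage list stood at 560 to 722 CPM in stimulated KO and 652 to 1051 CPM in stimulated WT cells, with 5 of its 10 genes above 0 in each. Their part in the Bst1 difference was not tested.

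**Figure D3:**
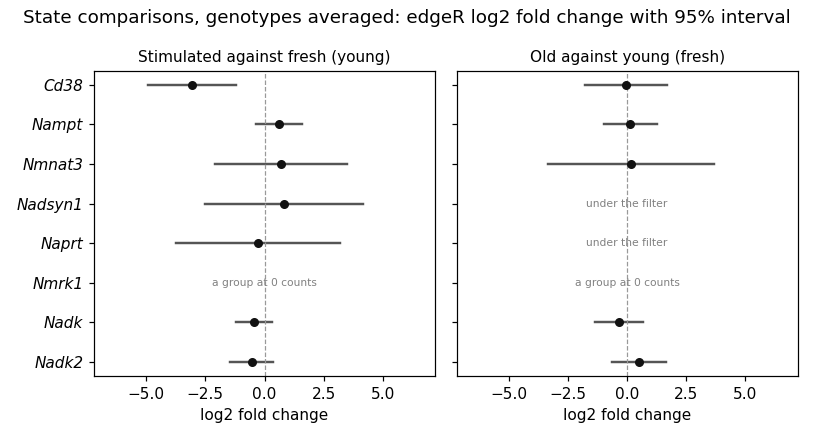
edgeR log2 fold change (dots) with 95% interval (lines) of members for stimulated against fresh young cells (12-library fit) and old against young fresh cells (8-library fit), genotypes averaged. The interval of Cd38 on stimulation, -4.91 to -1.20, is the only one shown that leaves out 0; members under the filter or with a group at 0 counts have no point.

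Age was addressed with old against young fresh cells. None of the 6 tested members passed edgeR's test, in which 2.72% of 10680 genes passed, and none of the 6 had all 4 old libraries on one side of all 4 young ones, where 8.43% of genes did. Cd38 averaged 37.2 ± 27.6 CPM in old and 34.2 ± 19.9 CPM in young fresh cells (SD, n = 4 each), a log2 difference of -0.04 ± 0.82 with the genotypes averaged. Nampt averaged 89.1 ± 40.0 CPM in old and 80.7 ± 50.7 CPM in young cells (log2 0.14 ± 0.54). Nadk had a narrow range in old cells, 62.4 to 66.4 CPM, against 52.1 to 102 CPM in young ones (log2 -0.35 ± 0.49). Nadk2 had 59.8 and 112 CPM in old KO and 66.7 and 69.7 CPM in old WT cells, against 35.2 to 69.0 CPM in young cells (log2 0.51 ± 0.54, 95% interval -0.62 to 1.65, adjusted p = 0.772 by edgeR). Nmnat3 had 1.62 and 18.2 CPM in old KO and 24.4 and 16.2 CPM in old WT cells (log2 0.15 ± 1.67).

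Of the sparse members, Naprt, Nadsyn1 and Nmnat1 had lower means in old cells, whose libraries were deeper, and none of these differences passed a test. Naprt had 2 counts in the 4 old libraries together, both in WT replicate 1 (0.531 CPM), against 17 and 0 counts in young fresh KO and 5 and 5 in young fresh WT. Its exact permutation p was 0.143, where 4 against 4 libraries can reach 0.0286. Nadsyn1 had 0 counts in both old KO libraries and 8 and 3 counts in old WT, against 1 and 30 counts in young fresh KO and 2 and 1 in young fresh WT. Nmnat1 had 5 counts in old WT replicate 2 and none in the other 3 old libraries. For Nadsyn1 the exact permutation p was 0.371 and for Nmnat1 0.429. In old KO cells Nmnat1, Nadsyn1 and Naprt thus were at 0 in both libraries. By counting error alone, that allows up to 0.695 and 0.621 CPM each. Against that floor, pooled over the group, they were at least 29.95-fold, 24.4-fold and 13.4-fold lower in old KO than in young fresh KO cells. Nearly all of the young KO counts of each came from a single library, replicate 3 for Nmnat1 and Naprt and replicate 4 for Nadsyn1. Young fresh KO replicate 4 had 0 counts of Nmnat1 and Naprt, and replicate 3 had 1 count of Nadsyn1. These folds therefore cover counting error only, not the spread between fresh libraries. Nmrk1 ran the other way, at 11.1 and 0 CPM in old KO and 14.3 and 7.81 CPM in old WT cells, against 0 in both young fresh KO libraries and 0 and 8.57 CPM in young fresh WT (exact permutation p = 0.257). Age cannot be told apart from depth or from any other difference between the old and young library sets.

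**Figure D4:**
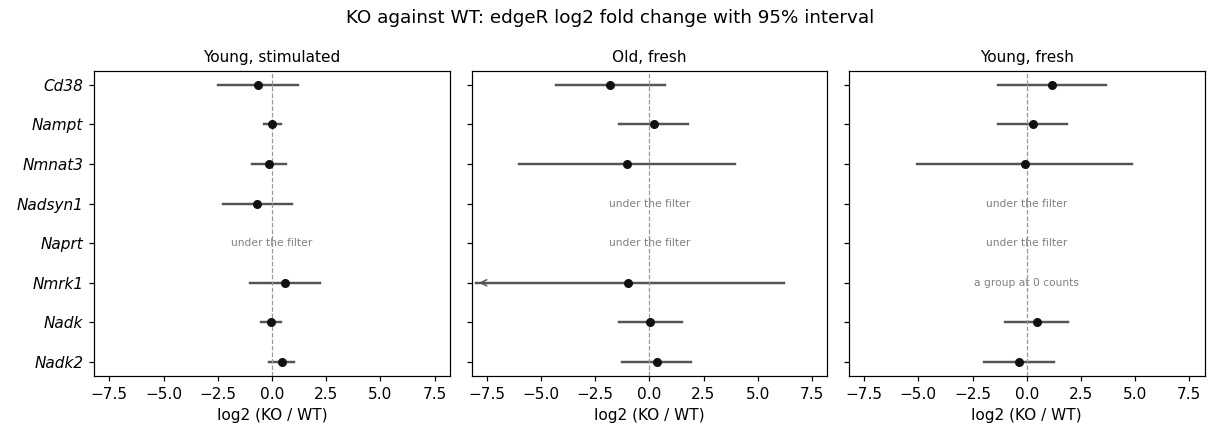
edgeR log2 fold change of KO over WT (dots) with 95% interval (lines) for members in stimulated young cells (4-library fit), old fresh cells and young fresh cells (8-library fit). Every interval includes 0, and those of Nampt and Nadk in stimulated cells stay within 0.50 of 0; members under the filter or with a group at 0 counts have no point.

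Whether the loss of CD38 goes with a change in the NAD genes was addressed by KO against WT in each state. In stimulated cells, where the libraries were tight, none of the 7 tested members passed, while 1.23% of 10494 genes did. Nampt differed by log2 0.02 ± 0.18 (95% interval -0.35 to 0.40) and Nadk by -0.04 ± 0.22 (-0.50 to 0.43). A doubling or halving of either lies outside its interval in this 4-library fit. In edgeR on all 12 libraries, which takes in the wider spread of fresh cells, the SE was 0.64 for Nampt and 0.50 for Nadk. In the 4-library fit Nmnat3 differed by -0.14 ± 0.37 (-0.93 to 0.66). Nadk2, which averaged 42.1 ± 11.2 CPM for KO against 31.3 ± 4.28 CPM for WT (SD, n = 2 each), differed by 0.45 ± 0.27 (-0.13 to 1.02, adjusted p = 0.597 by edgeR). Nadsyn1 had 6.62 and 0.993 CPM in KO and 5.99 and 6.60 CPM in WT (-0.67 ± 0.76). Nmrk1 had 4.14 and 3.31 CPM in KO and 2.66 and 2.31 CPM in WT (0.60 ± 0.76), the only tested member whose genotypes did not overlap, where 42% of tested genes did not. Of the untested members, which that share does not cover, Bst1 and Naprt did not overlap, with KO below WT. Naprt had 2.48 and 1.66 CPM in KO and 5.66 and 2.64 CPM in WT. Its nearest pair, KO replicate 3 and WT replicate 2, stood on 9 and 8 counts, so the separation of Naprt rested on scaling to library size. Cd38 differed by -0.66 ± 0.87 (-2.51 to 1.19, adjusted p = 0.855 by edgeR) on 20 counts in KO and 29 in WT. Its sign rested on WT replicate 2, without which it stood at 1.56.

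In fresh cells, edgeR called 0% of 10680 genes between KO and WT in the old, with 428 at an unadjusted p under 0.05, and 0% in the young, with 519. DESeq2 called 102 genes in old and 134 in young fresh cells, and limma voom 2 in old and 0 in young, with no member among them. The intervals were wide: for Nampt the log2 difference was 0.20 ± 0.76 (-1.39 to 1.79) in old and 0.27 ± 0.76 (-1.33 to 1.87) in young cells. For Nadk it was 0.05 ± 0.69 in old and 0.45 ± 0.70 in young cells, and for Nadk2 0.34 ± 0.76 and -0.35 ± 0.77 in the same order. Nmnat3 stood at -1.02 ± 2.38 in old and -0.10 ± 2.37 in young cells, which 2 libraries a group cannot resolve. Non-overlapping genotypes were seen for Cd38, with KO below WT, among 6 tested members in old cells, where 33.2% of genes did not overlap. In young cells they were seen for Cd38 and Nadk, with KO above WT, among 6, where 32.1% did not overlap. Nadsyn1, untested in old cells, had 0 counts in KO and 11 in WT, at least 4.73-fold lower in KO. Nmrk1 in young cells had 0 in KO and 15 in WT, at least 5.78-fold lower in KO, with all 15 in WT replicate 2. Both bounds cover counting error only, not the spread between fresh libraries.

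Cd38 thus pointed in opposite directions in the 2 ages. In old fresh cells the log2 difference of KO over WT was -1.79 ± 1.20 (95% interval -4.31 to 0.73), and in young fresh cells 1.16 ± 1.19 (-1.33 to 3.65). Neither passed, each at adjusted p = 1 by edgeR. Other genes were read in the old genotypes as well. The 6 stem cell genes summed to 666 to 751 CPM in old KO and 1144 to 1346 CPM in old WT cells. Within the 6, Fgd5 was level, at means of 21.1 CPM in old KO and 20.6 CPM in old WT cells. S100a8 had 678 to 1918 CPM in old KO and 291 to 769 CPM in old WT cells, so its ranges overlapped. Neither Hlf, with the smallest unadjusted p of the 6 (0.0164), nor S100a8 (0.00671) passed (adjusted p = 1 for each by edgeR). In young fresh cells the stem cell sums were 1163 to 1259 CPM in KO and 1266 to 1518 CPM in WT. Their part in the Cd38 values was not tested. The difference of these differences was -2.95 ± 1.69 (95% interval -6.49 to 0.59, adjusted p = 0.913 by edgeR). A separation in opposite directions in the 2 ages was found for 5.38% of the 10680 genes tested. Without young fresh WT replicate 1 the young difference was 0.94 and the interaction -2.73. The age interaction passed for 0% of genes in edgeR, with 587 at an unadjusted p under 0.05, 87 genes passing in DESeq2 and 0 in limma voom, none of them a member. For genotype and stimulation the interaction also passed for 0% of genes in edgeR, with 577 at an unadjusted p under 0.05, 32 in DESeq2 and 0 in limma voom, again with no member. The stimulation interaction of Cd38 was -1.85 ± 1.64 and that of Nampt -0.28 ± 0.91.

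Over all 3 states together, the genotype labels were permuted within states for each member as a single value. The exact permutation test compares 6 KO with 6 WT libraries and can reach p = 0.00926 where values are not tied. For the members counted in every library, the exact p was 0.63 for Cd38, 1 for Nampt, 0.417 for Nadk and 0.713 for Nadk2. For Bst1, at 0 in all fresh libraries, the test can go no lower than the 0.333 it gave. These p-values are exact, two-sided and unadjusted.

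Genes next to Cd38 were also compared, since they lie on the same stretch of chromosome 5. Of 17 genes within 1 Mb in the files, 4 were tested between genotypes in each state. Cc2d2a, a gene of the ciliary base (43662374 to 43740975), rose in stimulated KO cells, with 19.0 and 27.8 CPM in KO against 5.32 and 6.27 CPM in WT (log2 2.03 ± 0.41, adjusted p = 0.0252 by edgeR). With each of the 4 libraries left out in turn, the log2 difference ran from 1.72 (without KO replicate 4) to 2.28 (without KO replicate 3). The call was lost without either KO library and kept without either WT library, in fits where 1 arm is a single sample. The edgeR fit on all 12 libraries called no gene in this comparison, with 57 at an unadjusted p under 0.05. Its old fresh levels were 28.0 and 13.7 CPM in KO and 1.33 and 0.30 CPM in WT, and its young fresh levels 0 and 22.5 CPM in KO and 0 and 6.28 CPM in WT, neither of which passed. The other 3 neighbours tested in stimulated cells did not pass, in a comparison where 1.23% of all genes did.

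Other genes of NAD metabolism were read from a list of 30, of which 28 were in the files under those symbols. No count was found in any library for 7 of the 28, among them Nmnat2, the neuronal adenylyltransferase, Nnmt, which methylates nicotinamide, and Qprt, which closes the route from tryptophan. Of the other genes of that route, Ido1 and Acmsd had 1 count each over all 12 libraries, Kynu 5, Tdo2 7, Haao 77 and Afmid 178. Afmid, kynurenine formamidase, averaged 4.77 CPM, above the 5 sparse members. Kmo, kynurenine 3-monooxygenase, was at 0 in all 8 fresh libraries and at 3.04 and 1.99 CPM in stimulated KO and 5.99 and 9.90 CPM in stimulated WT cells. In the list, 12 genes were tested between stimulated and fresh cells and 0 passed, where 2.81% of all genes did. Of the 12, 2 had an unadjusted p under 0.05, where 17.7% of all genes did. Kmo was among the 12 through its stimulated libraries alone. Between genotypes in stimulated cells 0 of 11 passed, where 1.23% of all genes did, with a median of -0.14 against 0.00 over all genes, and 2 of the 11, Kmo and Haao, had an unadjusted p under 0.05, where 10.9% of all genes did. In fresh cells 0 of 9 passed between genotypes in either age, where 0% of all genes did, and 0 of 9 between the ages, where 2.72% did. None of these 9 had an unadjusted p under 0.05 in those 3 comparisons. Slc25a51, which carries NAD into mitochondria, had the highest level of the list, at 222 and 204 CPM in stimulated KO and 233 and 231 CPM in stimulated WT cells, against 99.4 to 194 CPM in young fresh libraries (log2 0.63 ± 0.25, adjusted p = 0.213 by edgeR). Next came Pnp, which cleaves nucleosides, at a mean of 56.2 CPM over the 12 libraries, the transhydrogenase gene Nnt at 45.5 CPM and Nudt13 at 28.4 CPM.

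The genes most like Cd38 in level over the 12 libraries, among 11547 others, were Sec24b (Pearson r = 0.917 of log2 CPM), which encodes a coat protein of secretory vesicles, Ubxn7 (0.887), Zfp146 (0.885), the NF-kB subunit gene Rela (0.883) and Anxa7 (0.879). For Nampt they included Tnks2 (0.906), which encodes the NAD-consuming enzyme tankyrase 2, Wwp2 (0.886), Polr2i (0.874) and Aco1 (0.873). No member was in either set. These values describe 12 libraries from 3 states that share state and depth, and carry no test.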

How the data were processed

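RNA of sorted stem cells was made into QuantSeq 3′ FWD libraries, per the labels' protocols. The deposited values are raw read counts per gene symbol, for which the submitters' processing notes name HISAT2 2.2.1, HTSeq 0.9.1, mm10 and, for their own comparisons, DESeq2 1.34.0. Annotation, strand setting and read filters are not given in the sources used here. No member's last exon overlaps another gene in GENCODE M21. Positions are RefSeq's on GRCm38.p6.

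Counts were tested in R 4.3.3 with edgeR 4.0.16 (TMM, filterByExpr at min.count 10 and min.total.count 15, quasi-likelihood test, Benjamini-Hochberg over all genes). Genotypes in stimulated cells were fitted on those 4 libraries (10494 genes), fresh comparisons on the 8 fresh libraries (10680 genes), and stimulation and its interaction on all 12 (11548 genes), since the spread differed between states. Members under the filter were compared by exact permutation of log2(CPM + 1). Alternatives were RLE scaling, no filter, DESeq2 1.42.0, limma 3.58.1 voom with a weight per group, other sets of libraries, a replicate block, and each library left out in turn. Permutation tests of tested members and of genotype within states, Bst1 without a filter and Cc2d2a with libraries left out, and contrasts within a genotype were added after seeing the data.

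All 10 members were named by rule. Named besides were genes of the list of 30 that passed or had the 4 highest means, the 5 genes most like Cd38 and Nampt (one of which is not reported here), and called neighbours. Nmnat2, Nnmt, Qprt, Ido1, Tdo2, Kynu, Acmsd, Afmid, Kmo, Haao and Hlf were chosen after their values were seen. The members and lists were chosen with earlier results of these data known.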

Additional observations from a re-analysis of the deposited data

Results flagged for a closer look

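Cd38 differed in direction between the 2 ages: both old fresh KO libraries lay below both old fresh WT libraries (13.2 and 19.9 against 74.4 and 41.4 CPM), and both young fresh KO libraries lay above both young fresh WT libraries (62.8 and 31.9 against 17.6 and 24.6 CPM). On the log2(CPM + 1) scale the KO minus WT difference was -1.72 in old and 1.07 in young cells, so that they differed by -2.79. Seen from age, the same 8 values gave old minus young differences of -1.41 in KO and 1.38 in WT, again differing by -2.79. A separation of the genotypes in opposite directions in the 2 ages was found for 5.38% of genes. The interaction in edgeR was -2.95 ± 1.69 and did not pass (adjusted p = 0.913), and over its 13 alternatives it ran from -3.35 to -2.38 with adjusted p from 0.297 to 1.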

How the results depend on the processing

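No tested member passed in any of the 7 comparisons, and the count of members called stayed at 0 under RLE scaling, on other sets of libraries and with each library left out in turn (lowest 0, highest 0). It became 1 in 3 alternatives: Bst1 between genotypes in stimulated cells with no filter, and Cd38 between stimulated and fresh cells by DESeq2 and by limma voom. Of 677 alternative values of members, 673 kept the call, 4 gained it (all Cd38 on stimulation), 0 lost it, and 61 changed sign without a call in either setting. With genotypes averaged, Cd38 gained it by DESeq2, by limma voom and by the exact permutation test, whose p is unadjusted. Within KO cells it gained it by DESeq2. The cause of these moves was not tested. Leaving out single libraries moved the calls over all genes: between genotypes in stimulated cells to 24 without KO replicate 4, 48 without KO replicate 3 and 296 without WT replicate 1; on stimulation to 160 to 203 without any of the 4 stimulated libraries; and with age to 442 without old WT replicate 2 and to 493 and 551 without young fresh KO replicate 3 or 4. On stimulation Cd38 ran from -4.15 to -2.62 over 15 alternatives. The replicate block gave -3.32 for it (adjusted p = 0.114 by edgeR) and called 0 members. The labels do not say whether the replicate numbers pair libraries. Same-numbered libraries deviated with correlations of -0.0065 to 0.0118, which cannot decide it, since the wide spread of fresh replicates could hide a pairing. The block moved the calls over all genes to 614 from 325 on stimulation (444 on the same 8 libraries without it) and to 438 from 291 with age.

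Over all genes, the calls between genotypes in stimulated cells were 129, against 340 with no filter, 227 in limma voom and 0 in edgeR on all 12 libraries, where 57 genes had an unadjusted p under 0.05. On stimulation the 325 calls became 774 in DESeq2, 712 in limma voom and 521 with no filter, and with age the 291 became 924 in DESeq2, 577 on 12 libraries and 450 with no filter. In fresh cells the 0 calls between genotypes became 18 in old and 10 in young cells with no filter and 5 and 3 on 12 libraries, and 7 to 41 and 10 to 65 with a library left out. The interactions with no filter gave 10 calls for stimulation and 14 for age, and the age interaction 4 on 12 libraries and 4 to 57 with a library left out. For the members under the filter, a pseudocount of 0.1 or 2 in place of 1 moved no exact p across 0.05. Depth limits the sparse members most, since 3 counts stand for 0.621 to 1.88 CPM in a library.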
